A study of Mus musculus with 15 samples.

Results

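Blocking the IL-4 receptor alpha chain in allergic mice lowered a small group of genes in the whole lung and raised another. Arg1, Rnase2a, Mgl2 and Pdcd1lg2, genes that macrophages switch on when IL-4 or IL-13 reaches them, were lower with the antibody, as were the eotaxin genes Ccl24 and Ccl11 and the elastase gene Mmp12. The receptor genes Fpr1, Fpr2, Fcgr1, Tlr2 and Clec4d and the lysozyme gene Lyz2 were higher. Each of these was also higher in sham-treated lungs without allergen than in allergic lungs with a control antibody. The log2 ratio of control-antibody over sham-treated lungs ran from -0.74 (Tlr2) to -3.33 (Fpr1). For Sirpa and Cfb, also higher with the blocking antibody, that ratio was -0.02 and 0.14. The comparison asks which genes depend on the receptor chain in the allergen-exposed lung. Both groups were sensitised to ovalbumin (OVA) and then challenged with it. A monoclonal antibody to mouse IL-4Ra was given to 5 of these mice and an isotype control antibody to the other 5, which makes 10 of the 15 libraries measured. The members were taken by their treatment label alone, so no measured value chose them.

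All animals were wild-type female mice of the Balb strain. Sensitisation was by intraperitoneal injection and the challenge by nebulised OVA, and the antibody was dosed at 30 mg/kg. The labels used here state no age, dosing schedule or collection time. The 5 remaining libraries came from sham-treated mice that received saline and the isotype control, and their levels are given as the background without allergen. Each library held the RNA of 1 whole lung, so for every gene below fewer cells of a type and less RNA per cell cannot be told apart.

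IL-4 and IL-13 are the cytokines of type 2 immunity, made in the allergic lung mainly by T helper 2 cells and innate lymphoid cells. Both signal through receptors that contain IL-4Ra, which activates the transcription factor STAT6. In macrophages STAT6 induces the state called alternative activation, with arginase, chitinase-like proteins and lectins. In airway epithelium it drives mucus-producing goblet cells. In several lung cell types it induces the eotaxins, chemokines that attract eosinophils.

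Levels are given as CPM, the counts of a gene scaled by the adjusted library total, and are given in the order of replicates 1 to 5. A change is the log2 ratio of anti-IL-4Ra over isotype with its standard error (SE). Genes with an adjusted p under 0.05 were called, and each adjusted p of a gene comes from edgeR's quasi-likelihood test with Benjamini-Hochberg adjustment over all tested genes unless another tool is named. The totals of the 10 libraries lay between 10042825 and 16914475 expected counts, and 3 counts corresponded to 0.177 to 0.299 CPM. Markers of alveolar type 2 cells, which identify lung tissue, summed to 6726 to 14307 CPM in the isotype group and 7202 to 18571 CPM in the anti-IL-4Ra group. Library totals, detected genes, the share of counts on the ribosomal precursor Rn45s and the share on the 10 highest genes were compared by an exact two-sided permutation test, and the lowest adjusted p was 0.444 over 4 tests. Within each group the Rn45s share varied widely, from 4.31 to 12.4% with isotype and from 1.65 to 12.4% with anti-IL-4Ra. All 48 called genes remained called with that share as a covariate.

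Il4ra, which encodes the chain that the antibody binds, was measured at 162, 191, 153, 159 and 166 CPM in the isotype lungs and at 123, 178, 115, 156 and 135 CPM in the anti-IL-4Ra lungs. The groups overlapped, and the change was -0.23 ± 0.12, adjusted p = 1. The saline lungs held 183 ± 18.6 CPM (mean ± SD, n = 5).

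Of 15905 genes tested, 48 were called (0.302%), 26 lower with anti-IL-4Ra (0.163%) and 22 higher (0.138%). The 5 anti-IL-4Ra libraries lay entirely below or above the 5 isotype libraries in each of the 48 genes, and in 186 tested genes altogether (1.17%). With 5 libraries against 5, a gene without a difference separates in this way with a probability of 0.00794. A lack of overlap alone is therefore weak evidence for a gene that was not called. All 26 lower genes and 15 of the 22 higher genes changed by at least 2-fold. The median change over all tested genes was -0.0021 on the log2 scale. The scaling of the libraries places that median near 0, so the median does not show that most genes were unchanged. Around it the quartiles were -0.12 and 0.12, and all called genes lay outside them. Of the tested genes, 232 had a change of -1 or below and 86 a change of 1 or above. DESeq2 called 132 genes, 62 higher and 70 lower, with all 48 among them. The count of higher genes was 13 without isotype replicate 1, 14 without anti-IL-4Ra replicate 5 and 13 when the saline libraries were left out of the fit.

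**Figure D1:**
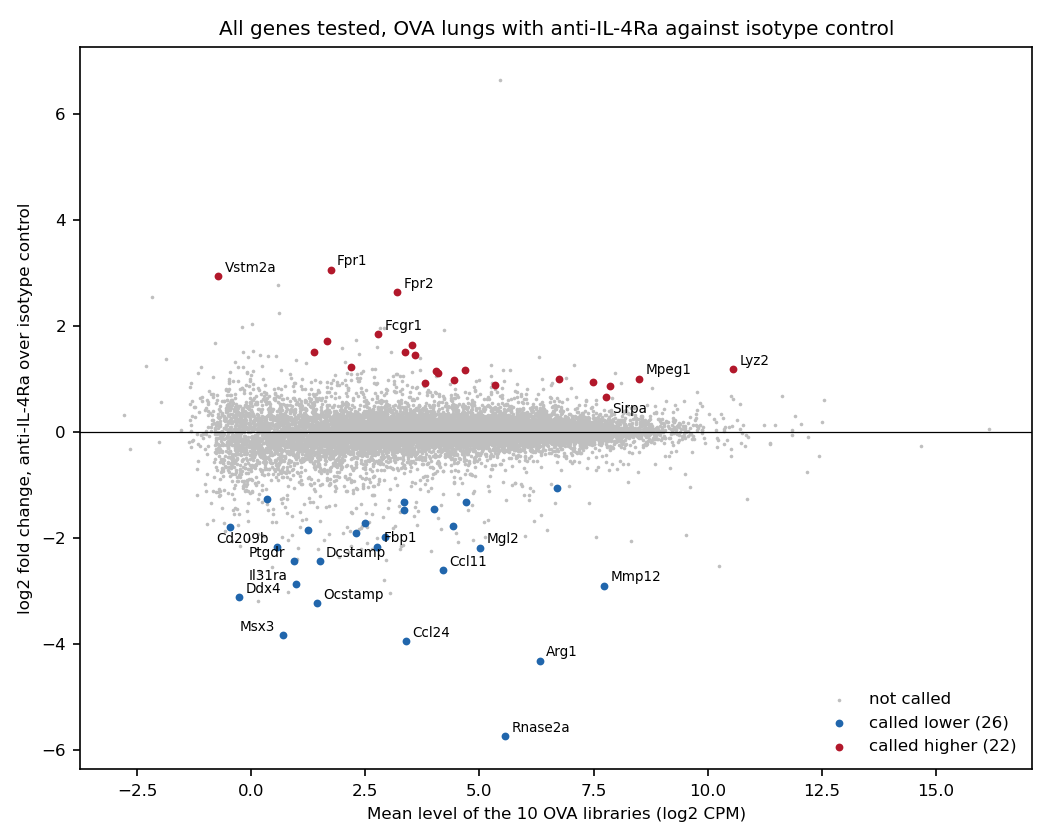
Change with anti-IL-4Ra (log2, vertical axis) against the mean level in the 10 OVA libraries (log2 CPM, horizontal axis), 1 point per tested gene. The 26 genes called lower reach -5.75 (Rnase2a) and the 22 called higher reach 3.06 (Fpr1), while most of the 15905 points lie near 0.

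Promoter sequences are shown for 4 called genes because STAT proteins bind palindromic pairs of TTC and GAA, and STAT6 is known to prefer a spacing of 4 bases between them where other STATs prefer 3. The motifs searched were TTCNNNNGAA and TTCNNNGAA, each of which reads the same on both strands, in the 300 bases from 250 before to 50 after each start site in RefSeq (GRCm38.p6). RefSeq held windows for 20 of the 26 lower genes, 18 of the 22 higher genes and 12495 of the 15905 tested genes. The 250 bases before the start are printed 5′ to 3′ on the gene's strand, with the motif in capitals. Pdcd1lg2 (chr19:29410669-29410918, plus strand) and Tmem26 (chr10:68723496-68723745, plus strand) were lower and held the 4-base spacing. Il31ra (chr13:112580663-112580912, minus strand), which was lower, and Fpr2 (chr17:17887574-17887823, plus strand), which was higher, held the 3-base spacing.
Pdcd1lg2: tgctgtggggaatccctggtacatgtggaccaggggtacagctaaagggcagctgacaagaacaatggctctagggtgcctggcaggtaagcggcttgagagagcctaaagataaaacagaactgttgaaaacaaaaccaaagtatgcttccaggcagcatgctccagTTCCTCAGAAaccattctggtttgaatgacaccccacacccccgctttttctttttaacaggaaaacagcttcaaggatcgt
Tmem26: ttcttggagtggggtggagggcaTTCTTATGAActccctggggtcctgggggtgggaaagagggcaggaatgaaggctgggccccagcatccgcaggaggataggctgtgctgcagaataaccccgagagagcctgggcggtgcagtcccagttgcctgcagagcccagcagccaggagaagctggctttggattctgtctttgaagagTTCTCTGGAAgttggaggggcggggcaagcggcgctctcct
Il31ra: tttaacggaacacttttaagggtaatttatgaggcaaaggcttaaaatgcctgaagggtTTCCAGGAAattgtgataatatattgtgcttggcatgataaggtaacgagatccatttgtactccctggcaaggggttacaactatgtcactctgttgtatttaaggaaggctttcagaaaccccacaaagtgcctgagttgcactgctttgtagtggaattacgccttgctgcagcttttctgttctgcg
Fpr2: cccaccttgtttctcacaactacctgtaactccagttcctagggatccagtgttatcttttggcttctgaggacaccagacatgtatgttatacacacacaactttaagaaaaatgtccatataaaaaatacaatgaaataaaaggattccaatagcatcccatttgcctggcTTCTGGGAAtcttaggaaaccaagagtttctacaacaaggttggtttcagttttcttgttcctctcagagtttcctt
TTCNNNNGAA occurred in 2 of the 20 lower genes (10%, exact Clopper-Pearson 95% interval 1.23 to 31.7%), in 0 of the 18 higher genes (up to 18.5%) and in 827 of the 12495 tested genes (6.62%). Over all 32851 windows in the table the share was 6.95%. TTCNNNGAA occurred in 2 of the 20 lower genes (10%), 2 of the 18 higher genes (11.1%) and 1064 of the 12495 tested genes (8.52%), and in 8.30% of all windows. For the 4-base spacing both intervals include the share of all tested genes and reach well above it. Groups this small therefore cannot show whether these letters set the called genes apart in this window.

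The largest decreases among the called genes were those of Rnase2a and Arg1, both genes of alternatively activated macrophages. Arg1, the arginase that turns arginine into ornithine, was measured at 99.9, 156, 94.6, 169 and 241 CPM with isotype and at 3.97, 14.3, 5.59, 9.82 and 4.37 CPM with anti-IL-4Ra. Even the highest anti-IL-4Ra lung held far less Arg1 than the lowest isotype lung, and the change was -4.32 ± 0.38, adjusted p = 6.78e-05. Saline lungs held 2.34 ± 0.738 CPM.

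Rnase2a, a ribonuclease of the eosinophil-associated family that alternatively activated macrophages also make, was at 64.8, 80.1, 103, 160 and 55.5 CPM with isotype. With anti-IL-4Ra it was at 1.24, 4.82, 0.865, 1.55 and 0.227 CPM, a change of -5.75 ± 0.54, adjusted p = 9.4e-05, the largest of any called gene. Anti-IL-4Ra replicate 2 stood above the other 4 and was still far below every isotype library. The saline level was 0.154 ± 0.0978 CPM. Mgl2, the C-type lectin CD301b, showed 40.2, 36.5, 56.1, 63.1 and 68.9 CPM with isotype and 11.4, 22.2, 8.26, 8.41 and 7.90 CPM with anti-IL-4Ra. Replicate 2 was again the highest of the anti-IL-4Ra lungs, and the other 4 lay below the saline mean of 14.4 ± 1.92 CPM. The change of Mgl2 was -2.19 ± 0.27, adjusted p = 0.000942. Its counts were not whole in any of the 10 libraries, which marks reads that the counting shared with a similar gene.

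Pdcd1lg2, the inhibitory ligand PD-L2 whose promoter is printed above, fell from 33.4 ± 8.63 to 9.71 ± 3.03 CPM (mean ± SD, n = 5 each; -1.79 ± 0.25, adjusted p = 0.00175). In contrast to Mgl2 its anti-IL-4Ra libraries stayed well above the saline level of 1.74 ± 0.410 CPM. These were the 4 called members of a list of 20 alternatively activated macrophage genes. Of the 20, 19 had a lower mean estimate with anti-IL-4Ra, 12 had an unadjusted p under 0.05, all lower, and the median change was -0.78. Over all genes tested, 0.163% were called lower and 2.91% were lower at an unadjusted p under 0.05. The list was chosen with earlier results of these data known. Egr2, a transcription factor of that state, came close at -0.97 ± 0.21, adjusted p = 0.0732 without overlap between the groups, and so did Alox15, the 15-lipoxygenase, at -1.71 ± 0.41, adjusted p = 0.13. Matk (-1.03 ± 0.30, adjusted p = 0.321) and Cd163 (-1.49 ± 0.43, adjusted p = 0.325) were not called and overlapped. The chitinase-like genes Chil3 and Chil4 were at 2629 ± 1190.5 and 2079.6 ± 1428 CPM with isotype and at 1087 ± 861 and 359 ± 359 CPM with anti-IL-4Ra, with adjusted p = 0.52 for both. Retnla, the resistin-like molecule Fizz1, changed by -0.47 ± 0.47 (adjusted p = 1) and remained at 4681 ± 2876 CPM, against 22.6 ± 14.8 CPM in saline. Of the 20 genes, 7 were called lower by DESeq2 and 5 by limma voom. Markers of alveolar macrophages, beside these decreases, had no member called by edgeR among 10 and 1 called higher by DESeq2, and at an unadjusted p under 0.05 they split into 4 higher and 2 lower. Their summed level was 1164 to 4378 CPM with isotype and 542 to 2760 CPM with anti-IL-4Ra, and its part in the decreases was not tested. Chil3 is on both lists.

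**Figure D2:**
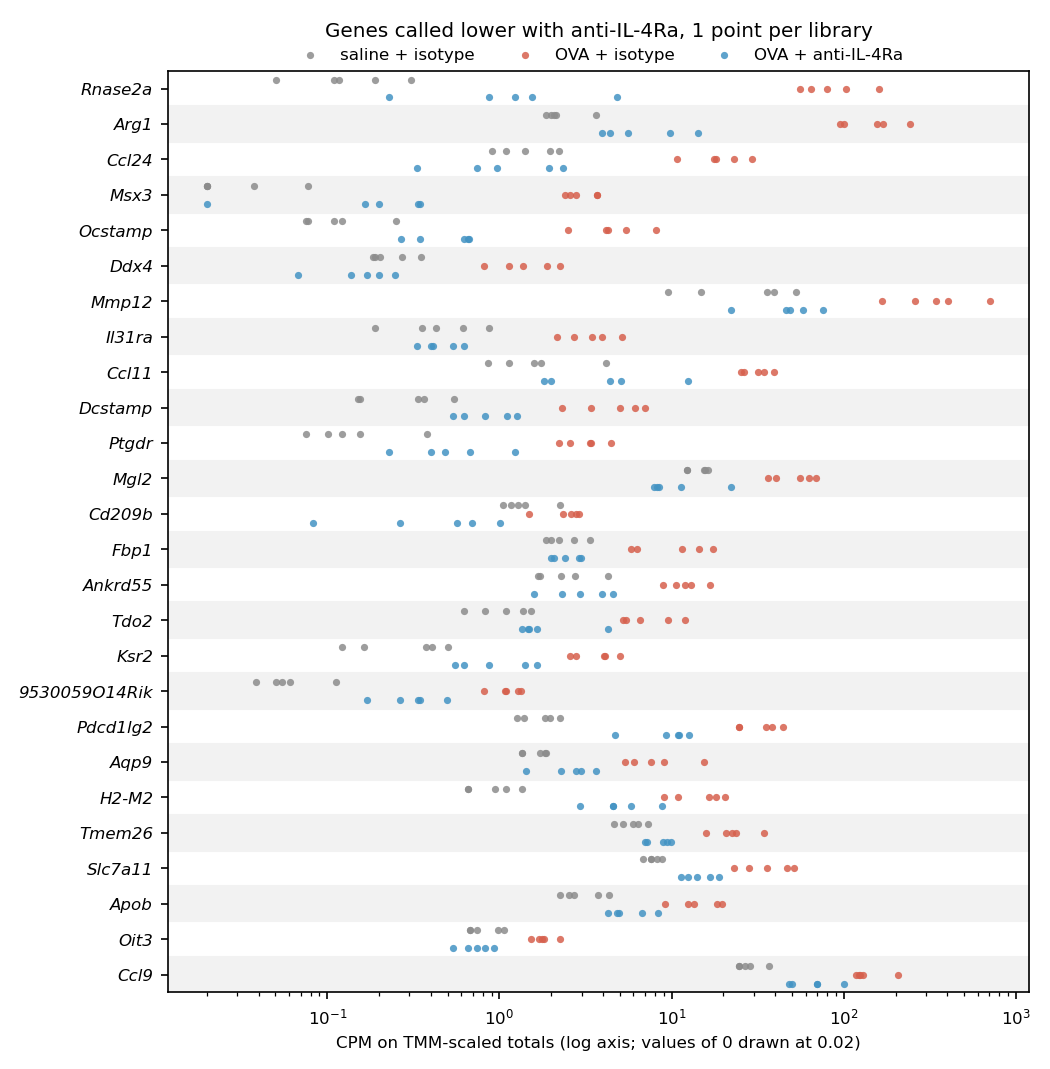
Level of each gene called lower, in CPM on a log axis, with 1 point per library for saline (grey), OVA with isotype (red) and OVA with anti-IL-4Ra (blue). In all 26 genes the blue points lie below the red points, as in Arg1, where the highest blue point is 14.3 CPM and the lowest red point is 94.6 CPM.

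Dcstamp and Ocstamp encode membrane proteins needed for macrophages and osteoclast precursors to fuse into giant cells. Ocstamp was at 2.50, 4.13, 4.25, 8.07 and 5.43 CPM with isotype and at 0.661, 0.344, 0.666, 0.269 and 0.625 CPM with anti-IL-4Ra (-3.23 ± 0.37, adjusted p = 0.000625). Dcstamp was at 3.41, 5.04, 2.30, 7.04 and 6.15 CPM and 0.826, 1.10, 1.26, 0.538 and 0.625 CPM (-2.45 ± 0.37, adjusted p = 0.00479). Both were lower in every anti-IL-4Ra lung, and both saline means, 0.127 and 0.311 CPM, were lower still. They were the only called members of a list of 10 fusion and osteoclast-like genes, whose median change was -0.08. The osteoclast protease genes on the list did not move one way. Ctsk, cathepsin K, changed by -0.77 ± 0.23, adjusted p = 0.363, and Mmp9, a gelatinase, by 0.68 ± 0.20, adjusted p = 0.344.

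Of 19 CC chemokine genes tested, 3 were called, all lower, against a median of -0.14 for the list. Ccl24, eotaxin-2, was at 10.7, 18.2, 17.6, 29.3 and 23.0 CPM with isotype and at 0.744, 1.93, 0.333, 2.35 and 0.966 CPM with anti-IL-4Ra (-3.95 ± 0.43, adjusted p = 0.000448). Saline lungs held 1.52 ± 0.561 CPM, and the anti-IL-4Ra lungs lay on both sides of that mean. Ccl11, eotaxin-1, was at 26.5, 31.6, 34.5, 39.3 and 25.3 CPM with isotype and at 1.98, 12.5, 4.39, 5.11 and 1.82 CPM with anti-IL-4Ra (-2.61 ± 0.48, adjusted p = 0.0243). Replicate 2 held the highest Ccl11 of the anti-IL-4Ra lungs, below every isotype lung. Its call was lost without isotype replicate 2, 3 or 4 or anti-IL-4Ra replicate 1, 3, 4 or 5, at an adjusted p of up to 0.0771, with a change of -2.38 or stronger in all these fits. Ccl9, a chemokine of myeloid cells, fell from 140 ± 37.3 to 67.4 ± 20.9 CPM (-1.05 ± 0.21, adjusted p = 0.0391). That call held in 2 of the 15 fits with 1 library left out, those without saline replicate 4 and without anti-IL-4Ra replicate 2, and reached an adjusted p of 0.13 without anti-IL-4Ra replicate 1. Ccl8 (-1.19 ± 0.32, adjusted p = 0.226) and Ccl22 (-0.81 ± 0.29, adjusted p = 0.557), ligands of type 2 lymphocytes and regulatory T cells, were lower on average but not called. Ccl20, the ligand of CCR6, was not called either, at 1.09 ± 0.47, adjusted p = 0.767.

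Eosinophil markers, the cells that eotaxins attract, had no called member among 5 tested by edgeR, with 3 members at an unadjusted p under 0.05 (2 lower, 1 higher), 1 called lower by DESeq2 and 0 by limma voom. Epx, eosinophil peroxidase, was at 1.44, 1.41, 1.08, 1.30 and 4.51 CPM with isotype and at 0.413, 0.551, 0.133, 0.336 and 0.114 CPM with anti-IL-4Ra. The groups did not overlap, and the change of -2.63 ± 0.55, adjusted p = 0.066 missed the threshold. Isotype replicate 5 held the highest value of Epx, and also of the granule protein gene Prg2, at 5.53, 4.63, 2.63, 5.54 and 21.6 CPM against 1.24, 2.41, 1.93, 4.78 and 0.682 CPM (-1.84 ± 0.57, adjusted p = 0.401). The receptor gene Ccr3 changed by -0.74 ± 0.35, adjusted p = 0.881, and the marker Siglecf, listed in the table as Siglec5, by 0.50 ± 0.19, adjusted p = 0.623. Summed over the list, levels were 28.6 to 63.6 CPM with isotype and 23.6 to 45.8 CPM with anti-IL-4Ra. The part of eosinophil number in the decrease of Rnase2a and the eotaxins was not tested.

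Mmp12, the elastase of macrophages, was the most changed of the extracellular matrix genes. It was at 258, 404, 342, 708 and 166 CPM with isotype and 22.2, 58.0, 46.5, 75.6 and 48.7 CPM with anti-IL-4Ra (-2.90 ± 0.48, adjusted p = 0.00899). Isotype replicate 4 held the most, and every anti-IL-4Ra lung lay well below the lowest isotype lung, replicate 5. The saline level was 30.5 ± 17.9 CPM. It was the only called gene of 19 on the list, whose median change was -0.21. Spp1, the secreted phosphoprotein osteopontin, changed by -1.34 ± 0.31, adjusted p = 0.107, and the IL-13-inducible matrix genes Postn and Tnc by -0.60 ± 0.24, adjusted p = 0.658 and -0.53 ± 0.25, adjusted p = 0.867.

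A further set of lower genes encodes receptors, transporters and surface proteins. Il31ra, a subunit of the receptor for the itch cytokine IL-31, was at 2.73, 3.47, 2.16, 3.97 and 5.13 CPM with isotype and 0.331, 0.413, 0.399, 0.538 and 0.625 CPM with anti-IL-4Ra (-2.88 ± 0.36, adjusted p = 0.000942). The anti-IL-4Ra lungs lay in the range of the saline lungs, which held 0.490 ± 0.262 CPM. Ptgdr, the DP1 receptor for prostaglandin D2, was at 2.58, 2.23, 3.38, 4.45 and 3.38 CPM with isotype and 1.24, 0.482, 0.399, 0.673 and 0.227 CPM with anti-IL-4Ra (-2.43 ± 0.40, adjusted p = 0.0103). Replicate 1 held the highest Ptgdr of the anti-IL-4Ra lungs, below every isotype lung. Cd209b, the lectin SIGN-R1, fell from 2.42 ± 0.562 to 0.523 ± 0.363 CPM (-2.17 ± 0.41, adjusted p = 0.0297). Of all called lower genes, it had the lowest anti-IL-4Ra mean relative to saline, which held 1.43 ± 0.482 CPM. The call of Cd209b was lost without isotype replicate 1, 3, 4 or 5 or anti-IL-4Ra replicate 3 or 5, at an adjusted p of up to 0.0955.

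Aqp9, a channel for water and glycerol, changed by -1.73 ± 0.30, adjusted p = 0.0136 and was not called when the saline libraries were left out of the fit. Slc7a11, the cystine and glutamate exchanger, changed by -1.34 ± 0.20, adjusted p = 0.00479. Tmem26, a transmembrane protein whose promoter holds the 4-base spacing at 2 places, fell from 23.4 ± 6.75 to 8.51 ± 1.32 CPM with the smallest SE of the lower genes (-1.46 ± 0.19, adjusted p = 0.00134). H2-M2, a non-classical MHC class I gene, fell from 15 ± 4.81 to 5.34 ± 2.19 CPM (-1.49 ± 0.29, adjusted p = 0.0409), and its call was lost in 9 of the 15 fits with 1 library left out, at up to 0.136 without anti-IL-4Ra replicate 1. The counts of Slc7a11, H2-M2 and Ccl9 were not whole in any of the 10 libraries, so reads of these genes were shared with others; the same held in 9 libraries for Ptgdr and 7 for Mmp12.

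Enzymes and metabolic genes followed. Fbp1, fructose bisphosphatase of gluconeogenesis, fell from 11.1 ± 5.02 to 2.47 ± 0.451 CPM (-2.17 ± 0.30, adjusted p = 0.00169), where saline held 2.43 ± 0.610 CPM. Tdo2, which opens the tryptophan ring at the start of the kynurenine pathway, fell from 7.75 ± 2.94 to 2.04 ± 1.25 CPM (-1.92 ± 0.36, adjusted p = 0.0297). Apob, the structural protein of low-density lipoprotein, fell from 14.6 ± 4.28 to 5.84 ± 1.70 CPM (-1.32 ± 0.25, adjusted p = 0.0303). The calls of Tdo2 and Apob were each lost in 7 of the 15 fits with 1 library left out, at up to 0.116 without anti-IL-4Ra replicate 1 for both.

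Several lower genes have known roles outside macrophages. Msx3 is a homeobox gene known from the developing spinal cord. It was at 2.58, 2.40, 2.77, 3.69 and 3.69 CPM with isotype and 0.165, 0.344, 0.200, 0.336 and 0 CPM with anti-IL-4Ra (-3.83 ± 0.48, adjusted p = 0.000942). Anti-IL-4Ra replicate 5 had no count, which allows up to 0.177 CPM, and 194 counts in the isotype group stood against 15 in the anti-IL-4Ra group. Ddx4, the germ-cell RNA helicase Vasa, was at 1.14, 1.90, 0.810, 1.37 and 2.26 CPM with isotype and 0.248, 0.138, 0.200, 0.0673 and 0.170 CPM with anti-IL-4Ra (-3.12 ± 0.38, adjusted p = 0.000876). That is 92 counts against 12, and the saline mean was 0.239 ± 0.0711 CPM. Ankrd55, an ankyrin repeat protein, fell from 12.2 ± 2.92 to 3.07 ± 1.2 CPM (-1.98 ± 0.31, adjusted p = 0.00517). Ksr2, a scaffold of the Ras and MAP kinase pathway, fell from 3.71 ± 1.02 to 1.02 ± 0.488 CPM (-1.86 ± 0.36, adjusted p = 0.0341). Oit3 fell from 1.81 ± 0.275 to 0.739 ± 0.151 CPM (-1.28 ± 0.23, adjusted p = 0.0249) and the RIKEN clone 9530059O14Rik from 1.12 ± 0.207 to 0.323 ± 0.119 CPM (-1.80 ± 0.31, adjusted p = 0.0136). With 1 library left out the call of 9530059O14Rik was lost without anti-IL-4Ra replicate 5 (adjusted p = 0.0525), that of Ksr2 in 6 fits (up to 0.116 without anti-IL-4Ra replicate 5) and that of Oit3 in 7 (up to 0.0937 without anti-IL-4Ra replicate 1).

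Single lungs took part unequally in these decreases. Isotype replicate 4 held the highest of the 5 isotype values in 16 of the 26 lower genes, and isotype replicate 3 the lowest in 10. Among the anti-IL-4Ra lungs, replicate 2 was highest in 8 of the 26 and replicate 5 was lowest in 11.

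Among the genes that rose were receptors of myeloid cells for bacterial products. Fpr1, a receptor for formyl peptides on neutrophils and monocytes, was at 0.758, 0.827, 1.28, 0.410 and 0.205 CPM with isotype and 4.54, 10.8, 3.19, 2.89 and 8.52 CPM with anti-IL-4Ra (3.06 ± 0.44, adjusted p = 0.0026). Its relative Fpr2, whose promoter is printed above, was at 3.79, 2.56, 2.30, 2.74 and 1.23 CPM with isotype and 22.2, 19.4, 11.3, 6.53 and 19.8 CPM with anti-IL-4Ra (2.63 ± 0.32, adjusted p = 0.000823). Both were lowest in the isotype group, and saline lungs held 7.28 ± 1.67 CPM of Fpr1 and 11.3 ± 1.28 CPM of Fpr2. Tlr2, the receptor for bacterial lipoproteins, was at 16.4, 16.3, 17.3, 18.2 and 11.5 CPM with isotype and 37.9, 36.5, 29.0, 32.1 and 42.6 CPM with anti-IL-4Ra (1.16 ± 0.15, adjusted p = 0.00119). Clec4d, the lectin MCL, was at 2.80, 2.40, 2.90, 3.08 and 2.36 CPM with isotype and 7.44, 6.40, 5.33, 5.38 and 7.21 CPM with anti-IL-4Ra (1.22 ± 0.19, adjusted p = 0.00578). All 5 anti-IL-4Ra lungs lay above the highest isotype lung in each of these genes. Saline lungs held 26.7 ± 4.07 CPM of Tlr2 and 4.83 ± 1.14 CPM of Clec4d, and both means lay above every isotype lung.

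These were the 4 called members of 24 inflammatory myeloid genes tested. Their list had a median change of 0.84, with 19 members higher on average and 14 of them at an unadjusted p under 0.05. The remaining 5 were lower on average, and 1 of these passed the same threshold, Nos2 at -0.68 ± 0.21 (adjusted p = 0.374). Among all tested genes, 2.77% rose and 2.91% fell by that measure. Cd14, the co-receptor for lipopolysaccharide (0.56 ± 0.15, adjusted p = 0.206), and the acute-phase gene Saa3 (1.40 ± 0.42, adjusted p = 0.363) did not overlap but were not called. The scavenger receptor Marco (1.73 ± 0.43, adjusted p = 0.145) and the amplifying receptor Trem1 (1.29 ± 0.34, adjusted p = 0.217) overlapped. Il6 and Il23a of that list were filtered out, with 27 against 25 and 7 against 17 counts for isotype against anti-IL-4Ra. Markers of neutrophils, which express many of these receptors, had 0 called members among 11 tested by edgeR, DESeq2 and limma voom. At an unadjusted p under 0.05, 3 of the 11 were higher and 1 lower, and their summed level was 311 to 493 CPM with isotype and 294 to 587 CPM with anti-IL-4Ra. Markers of monocytes and interstitial macrophages had 1 called member among 13, Cx3cr1, and a summed level of 945 to 1530 CPM with isotype and 986 to 1810 CPM with anti-IL-4Ra. The part of these cells in the increases was not tested.

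**Figure D3:**
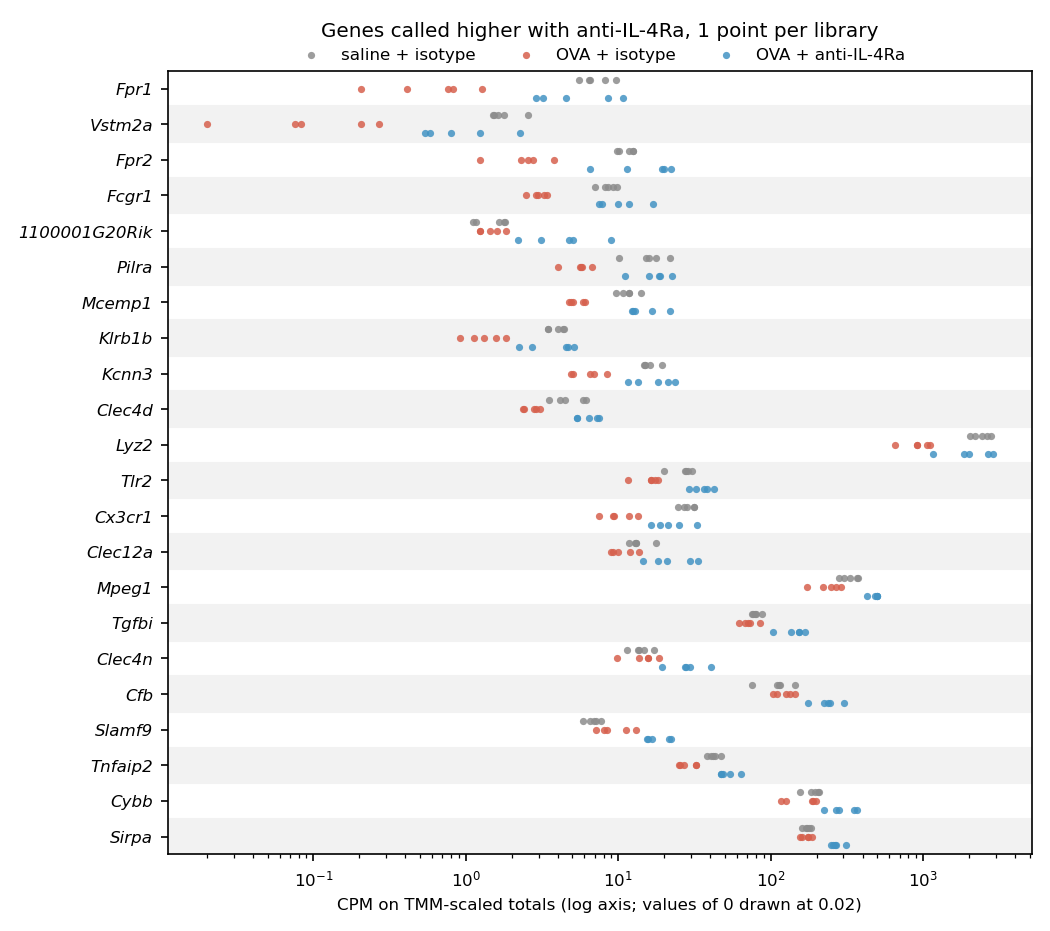
Level of each gene called higher, in CPM on a log axis, with 1 point per library for saline (grey), OVA with isotype (red) and OVA with anti-IL-4Ra (blue). In all 22 genes the blue points lie above the red points; a value of 0 (Vstm2a, isotype replicate 5) is drawn at 0.02.

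Other surface receptors of myeloid cells were higher as well, and so was Klrb1b of natural killer cells. Fcgr1, the high-affinity receptor for IgG, was at 3.26, 2.48, 2.97, 3.42 and 2.87 CPM with isotype and 11.7, 9.98, 7.52, 7.80 and 17.0 CPM with anti-IL-4Ra (1.84 ± 0.22, adjusted p = 0.00069). It was the only called gene of 7 Fc receptor genes, and saline lungs held 8.59 ± 1.06 CPM of it. The inhibitory receptor Fcgr2b went the other way without overlap (-0.43 ± 0.14, adjusted p = 0.494), as did the low-affinity IgE receptor Fcer2a with overlap (-1.19 ± 0.47, adjusted p = 0.673), and neither was called. Pilra, a paired inhibitory receptor, was at 5.61, 4.05, 5.74, 5.68 and 6.77 CPM with isotype and 18.8, 22.6, 11.1, 15.9 and 18.5 CPM with anti-IL-4Ra (1.64 ± 0.22, adjusted p = 0.00137). Klrb1b, an inhibitory lectin of natural killer cells, was at 0.909, 1.32, 1.82, 1.57 and 1.13 CPM with isotype and 4.71, 5.10, 2.73, 2.22 and 4.54 CPM with anti-IL-4Ra (1.50 ± 0.26, adjusted p = 0.0156). Saline lungs held 16.2 ± 4.28 CPM of Pilra and 3.94 ± 0.450 CPM of Klrb1b. Both genes belong to families of similar genes and had no library with whole counts. The call of Klrb1b was lost without isotype replicate 1, 2 or 5 or anti-IL-4Ra replicate 5, at an adjusted p of up to 0.0575.

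Mcemp1, a membrane protein of mast cells and phagocytes, was at 6.06, 5.87, 5.07, 4.72 and 4.92 CPM with isotype and 16.6, 21.8, 12.5, 12.2 and 12.9 CPM with anti-IL-4Ra (1.51 ± 0.18, adjusted p = 0.00069). The isotype lungs were close together, and the lowest anti-IL-4Ra lung held about as much as the saline mean of 11.6 ± 1.66 CPM. Cx3cr1, the fractalkine receptor of monocytes, rose from 10.2 ± 2.31 to 22.8 ± 6.35 CPM (1.15 ± 0.19, adjusted p = 0.00897), below the saline level of 28.4 ± 2.86 CPM, and was not called when the saline libraries were left out of the fit. The lectin receptor Clec12a rose from 10.8 ± 2.01 to 23.3 ± 7.85 CPM (1.11 ± 0.21, adjusted p = 0.0311) and Clec4n, the fungal receptor Dectin-2, from 14.7 ± 3.20 to 28.9 ± 7.67 CPM (0.97 ± 0.19, adjusted p = 0.042). Sirpa, the receptor for the don't-eat-me signal CD47, rose from 170.5 ± 12.1 to 269 ± 24.8 CPM, the smallest change called and the most precise (0.66 ± 0.09, adjusted p = 0.00185). Its saline level, 173 ± 9.04 CPM, lay near the isotype level. Counts were not whole in 4 of the 10 libraries for Sirpa and in 9 for Cx3cr1. Slamf9 rose from 9.58 ± 2.43 to 18.2 ± 3.24 CPM (0.93 ± 0.17, adjusted p = 0.0295), where saline held 6.83 ± 0.707 CPM. With 1 library left out, Clec12a lost its call in 7 of 15 fits (up to 0.11 without isotype replicate 1), Clec4n in 11 (up to 0.112 without anti-IL-4Ra replicate 1) and Slamf9 in 6 (up to 0.103 without isotype replicate 1).

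Effector genes of phagocytes rose with them. Lyz2, lysozyme, was at 913, 1103, 1054, 917 and 655 CPM with isotype and 1841, 2857, 1165, 1984 and 2641 CPM with anti-IL-4Ra (1.18 ± 0.22, adjusted p = 0.0281). The lowest anti-IL-4Ra lung, replicate 3, was barely above the highest isotype lung, and saline lungs held 2408 ± 299.6 CPM. Counts of Lyz2, which has the close copy Lyz1, were whole in none of the 10 libraries. Lyz2 was not called without isotype replicate 1, 4 or 5 or anti-IL-4Ra replicate 2 or 5, at an adjusted p of up to 0.0922. Mpeg1, the pore-forming perforin-2, rose from 240.3 ± 46.3 to 481 ± 30.5 CPM (1.00 ± 0.14, adjusted p = 0.00169), where saline held 330 ± 40.7 CPM. Cybb, the catalytic subunit of the phagocyte oxidase, rose from 164 ± 38.3 to 298 ± 59.5 CPM (0.87 ± 0.17, adjusted p = 0.0409), a call lost in 10 of the 15 fits with 1 library left out (up to 0.124 without anti-IL-4Ra replicate 5). Cfb, factor B of the alternative complement pathway, rose from 123 ± 17.1 to 236 ± 44.8 CPM (0.94 ± 0.17, adjusted p = 0.0189) and lost its call without isotype replicate 1, 4 or 5 or anti-IL-4Ra replicate 1 or 5 (up to 0.0681). It held 112 ± 24.3 CPM in saline lungs and was the only called gene of 10 complement genes, whose median change was 0.46. The receptor C5ar1 was next at 0.95 ± 0.21, adjusted p = 0.0732, without overlap. Tgfbi, a matrix protein secreted by macrophages, rose from 71.4 ± 8.46 to 143 ± 25.3 CPM (1.00 ± 0.13, adjusted p = 0.000942), and Tnfaip2, a gene induced by tumour necrosis factor, from 28.4 ± 3.64 to 52.0 ± 7.09 CPM (0.87 ± 0.11, adjusted p = 0.00119).

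Kcnn3, a calcium-activated potassium channel, was at 6.97, 5.04, 8.44, 6.57 and 4.92 CPM with isotype and 21.1, 23.6, 11.5, 13.5 and 18.1 CPM with anti-IL-4Ra (1.45 ± 0.20, adjusted p = 0.00198), and at 16.0 ± 1.94 CPM with saline. Vstm2a, a secreted protein with an immunoglobulin domain, was at 0.0758, 0.0827, 0.270, 0.205 and 0 CPM with isotype and 0.578, 1.24, 0.799, 0.538 and 2.27 CPM with anti-IL-4Ra (2.94 ± 0.55, adjusted p = 0.0277). It rests on 9 counts against 85, and isotype replicate 5 had none, which allows up to 0.299 CPM. Its call was lost without isotype replicate 1, 2, 4 or 5 or anti-IL-4Ra replicate 5 (up to 0.0969). The gene listed as 1100001G20Rik was at 1.59, 1.24, 1.82, 1.23 and 1.44 CPM with isotype and 5.04, 9.02, 2.20, 4.78 and 3.12 CPM with anti-IL-4Ra (1.71 ± 0.33, adjusted p = 0.0317). Replicate 2 was the highest and replicate 3 the lowest of the anti-IL-4Ra lungs, and the call was lost in 8 of the 15 fits with 1 library left out (up to 0.108 without isotype replicate 4). Across the 22 higher genes, isotype replicate 5 was the lowest isotype lung in 14 and anti-IL-4Ra replicate 3 the lowest anti-IL-4Ra lung in 11.

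The pathway that the antibody targets was described by 13 genes of receptors, kinases and feedback inhibitors. Of the 12 tested, edgeR called 0 and 2 had an unadjusted p under 0.05, with a median change of 0.00. These were Socs3 (0.34 ± 0.11, adjusted p = 0.454) and Cish (-0.64 ± 0.21, adjusted p = 0.461), inhibitors of cytokine signalling that are themselves STAT targets. Stat6 was at 124 ± 10.1 CPM with isotype and 134 ± 17.2 CPM with anti-IL-4Ra. The one member removed by the filter on low counts was Il13ra2, the decoy receptor for IL-13, and it moved most. It had 33, 36, 8, 54 and 12 counts in the isotype lungs, 6, 2, 5, 1 and 1 counts in the anti-IL-4Ra lungs, and 2 counts over all saline lungs. The groups did not overlap in counts. Without the filter edgeR gave -3.34 ± 0.61 (adjusted p = 0.0247), and DESeq2 called it at -3.37 ± 0.68 (adjusted p = 0.00027); limma voom did not test it.

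Cytokines of type 2 immunity showed no called change. Of 7 tested genes edgeR, DESeq2 and limma voom called 0, and 0 had an unadjusted p under 0.05. Il4 was at 0.915 ± 0.476 and 0.717 ± 0.380 CPM, Il5 at 1.67 ± 0.689 and 2.00 ± 1.18 CPM, and Il13 at 2.73 ± 1.37 and 3.12 ± 1.85 CPM with isotype and anti-IL-4Ra. All 3 were lower in saline, where Il13 was at 0.103 ± 0.0937 CPM. Il31, the ligand of the receptor containing Il31ra, was filtered out with 7 counts over the isotype lungs and 0 over the anti-IL-4Ra lungs.

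Goblet cell and mucus genes were lower on average in all 16 tested members, with a median of -0.61, yet edgeR, DESeq2 and limma voom called 0 of them and 2 had an unadjusted p under 0.05. Itln1, an intelectin that binds microbial sugars, was at 109, 89.6, 241, 184 and 74.8 CPM with isotype and 71.1, 11.8, 64.2, 43.0 and 4.37 CPM with anti-IL-4Ra (-1.85 ± 0.56, adjusted p = 0.392). Retnlb, which goblet cells secrete and which belongs to the resistin-like proteins, was at 31.8, 17.2, 35.4, 18 and 36.2 CPM with isotype and 11.8, 2.62, 12.4, 11.8 and 0.227 CPM with anti-IL-4Ra (-1.84 ± 0.66, adjusted p = 0.619). In both genes the groups did not overlap, and replicates 2 and 5 were the lowest anti-IL-4Ra lungs. Mucin and secretion genes overlapped widely. Clca3, the older symbol of Clca1, was at 5818 ± 4319 CPM with isotype and 3419.6 ± 3151 CPM with anti-IL-4Ra, and Muc5ac at 854 ± 736 and 771 ± 837 CPM (adjusted p = 1 for both). The SD was close to the mean in each of these groups, so a change of the size of the list's median was not detectable in them.

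Interferon-inducible genes were mostly higher on average, and edgeR called none of them with low counts filtered. Of 25 genes of the interferon-gamma response, 23 were higher on average and 15 had an unadjusted p under 0.05, all higher, with a median of 0.49. Of 19 type I interferon response genes, 18 were higher on average and 15 passed an unadjusted p of 0.05, all higher, with a median of 0.62. The type I list summed to 505 to 607 CPM with isotype, 613 to 1069 CPM with anti-IL-4Ra and 679 to 757.5 CPM with saline. Its isotype sums thus lay below the saline sums. The interferon-gamma list summed to 1294 to 2175 CPM with isotype, 1746 to 2583 CPM with anti-IL-4Ra and 1342.5 to 1961 CPM with saline. Over all genes tested, 2.77% were higher and 2.91% lower at that threshold. DESeq2 called 5 and 3 members of these lists, and limma voom called 0 of each. The guanylate-binding protein Gbp3 was at 38.8, 43.6, 36.2, 44.0 and 39.0 CPM with isotype and 64.5, 49.9, 62.3, 67.0 and 100.1 CPM with anti-IL-4Ra (0.77 ± 0.16, adjusted p = 0.0558), without overlap, and edgeR called it with no filter on low counts (adjusted p = 0.0484). Irf7, the regulator of type I interferon genes, was at 21.4, 23.5, 31.6, 16.2 and 31.9 CPM with isotype and 52.0, 28.2, 43.2, 68.2 and 65.1 CPM with anti-IL-4Ra (1.04 ± 0.22, adjusted p = 0.0667), with overlap. Isotype and anti-IL-4Ra levels of Cxcl10, the T cell chemokine that interferon-gamma induces, were 3.26, 3.14, 3.31, 4.79 and 2.15 CPM and 11.1, 5.78, 9.39, 5.52 and 19.3 CPM (1.61 ± 0.37, adjusted p = 0.109). Its relative Cxcl9 changed by 1.92 ± 0.51, adjusted p = 0.217. Both belong to 15 CXC chemokines, of which edgeR and limma voom called 0, DESeq2 called 2 and 5 had an unadjusted p under 0.05, all higher. Ifng itself was filtered out, with 18 counts over the isotype lungs and 44 over the anti-IL-4Ra lungs. Anti-IL-4Ra replicate 5 held the highest value of Gbp3, Cxcl10 and Cxcl9.

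**Figure D4:**
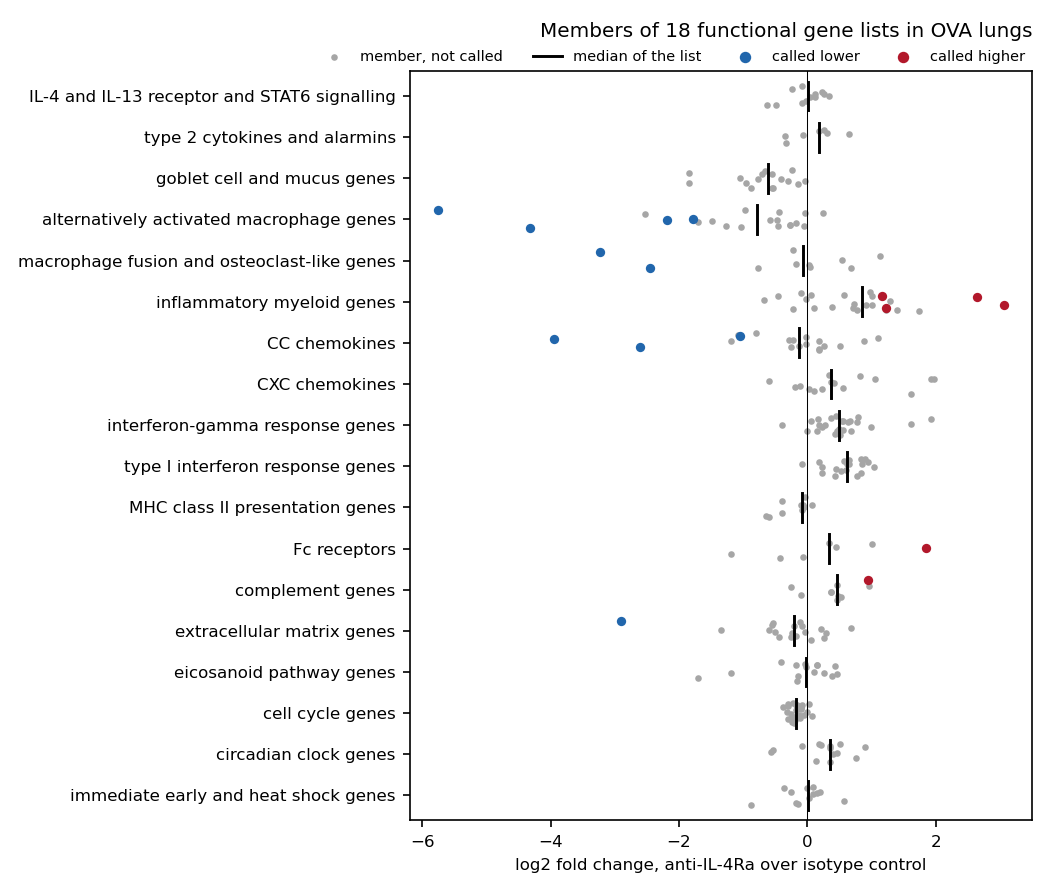
Change with anti-IL-4Ra (log2, horizontal axis) for each tested member of 18 functional gene lists, with called genes in blue (lower) or red (higher) and a bar at each list's median. The alternatively activated macrophage list has a median of -0.78 and 4 called genes, the inflammatory myeloid list a median of 0.84 and 4 called genes, and the bars of both interferon lists lie to the right of 0.

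Other functional lists held few or no called genes. MHC class II presentation genes had 0 called of 10 by edgeR, DESeq2 and limma voom, 0 at an unadjusted p under 0.05 and a median of -0.09. Cell cycle genes likewise had 0 called of 25 by the same tools and 0 at an unadjusted p under 0.05, with a median of -0.18. Their summed level was 1125 to 2434 CPM with isotype and 1050 to 1908 CPM with anti-IL-4Ra, both above the 441 to 705 CPM of the saline lungs. Of 15 eicosanoid pathway genes edgeR called 0, DESeq2 and limma voom called 1, Alox15, and 3 had an unadjusted p under 0.05. Ptgdr, the prostaglandin D2 receptor gene that edgeR called lower, was not on that list. Circadian clock genes had 0 called of 14 by edgeR and limma voom and 1 by DESeq2, with 3 at an unadjusted p under 0.05; the clock repressor Bhlhe41 was at 0.76 ± 0.17, adjusted p = 0.0996. Immediate early and heat shock genes had 0 called of 12 by edgeR and limma voom and 1 by DESeq2, with 2 at an unadjusted p under 0.05, of which the stress factor Atf3 was at -0.87 ± 0.23, adjusted p = 0.216.

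Of 20 lists of cell and tissue markers, only that of monocytes and interstitial macrophages held a gene called by edgeR. T cell markers had a median of 0.05, with 0 of 12 called by edgeR, DESeq2 and limma voom and 0 at an unadjusted p under 0.05. Among T helper 2 and regulatory T cell markers, Il1rl1, the receptor for IL-33, was lower without overlap (-0.79 ± 0.21, adjusted p = 0.206) and was called by DESeq2. B cell markers had a median of -0.42 and 1 of 10 at an unadjusted p under 0.05, the complement receptor Cr2 (-1.57 ± 0.59, adjusted p = 0.619). Their summed level ran from 395 to 2010 CPM with isotype and from 324 to 1459 CPM with anti-IL-4Ra, a spread between lungs larger than the difference between groups.

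Club cell markers, of the secretory cells of the airway, had a median of 0.79. Of 10, 6 had an unadjusted p under 0.05, all higher, 0 were called by edgeR and limma voom and 1 by DESeq2. Hp, haptoglobin, was at 159.8, 193, 229, 184 and 190.5 CPM with isotype and 329, 248, 414, 287 and 527 CPM with anti-IL-4Ra (0.92 ± 0.21, adjusted p = 0.109), without overlap. Cyp2f2, a cytochrome P450 of club cells, was at 199.5, 295, 602, 406 and 249 CPM with isotype and 723, 346, 733, 523 and 1725 CPM with anti-IL-4Ra (1.21 ± 0.39, adjusted p = 0.461), with replicate 5 far above the rest. The list summed to 4278 to 12346 CPM with isotype, 6126 to 17440 CPM with anti-IL-4Ra and 13490 to 31623 CPM with saline.

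Tissue carried along with the lung varied too. Cardiac muscle genes had a median of -1.91, and 9 of 11 were lower at an unadjusted p under 0.05; 0 were called by edgeR and limma voom and 1 by DESeq2. Their summed level was 214 to 2034 CPM with isotype, 130 to 607 CPM with anti-IL-4Ra and 776 to 2297 CPM with saline. The part of cardiac muscle in the called genes was not tested, and none of the 26 lower genes is on that list. Adipose genes summed to 13.8 to 661 CPM with isotype and 4.38 to 1138 CPM with anti-IL-4Ra, with a median of 0.92 and 0 of 7 at an unadjusted p under 0.05 or called by edgeR, DESeq2 and limma voom.

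**Figure D5:**
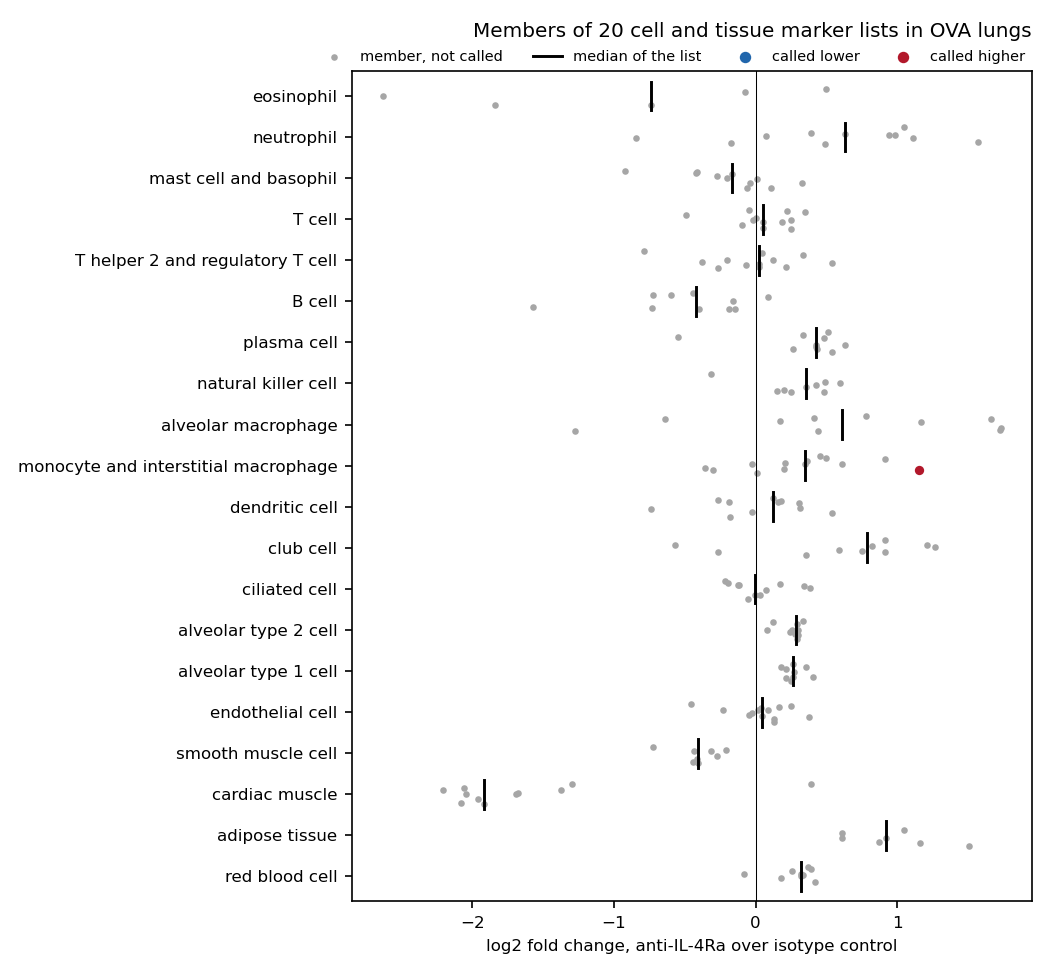
Change with anti-IL-4Ra (log2, horizontal axis) for each tested member of 20 marker lists, with called genes coloured and a bar at each list's median. Cx3cr1, at 1.15, is the only called marker; cardiac muscle genes lie to the left with a median of -1.91 and club cell markers to the right with a median of 0.79.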

How the data were processed

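RNA was sequenced from 15 whole lungs, and the comparison used 5 OVA lungs with anti-IL-4Ra and 5 with isotype control; the 5 saline lungs entered the fit to share its estimate of spread. The values are unnormalized expected counts, which the authors deposited for each gene symbol and animal. RSEM 1.2.15, Bowtie2 2.1.0 and the human build hg38 are named in the submitters' processing notes, although 22542 of the 24054 symbols are current mouse symbols in RefSeq, and no annotation is named. RSEM divides reads that fit several genes by estimate, and in each library 17.0 to 20.0% of values lay further than 0.005 from a whole number. Per the labels' protocols, libraries were strand-specific (dUTP), and both rRNA removal and oligo-dT selection are described.

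Counts were rounded, filtered with filterByExpr over the 3 groups (15905 genes kept), scaled by TMM and fitted in edgeR 4.0.16 (R 4.3.3) with glmQLFit and a two-sided glmQLFTest; SE came from the F statistic. DESeq2 1.42.0 and limma voom (limma 3.58.1), other scalings and filters, a covariate, a replicate block and leaving out each library were alternatives. Replicates are labelled as biological, and no 2 libraries of a group agreed within sampling noise (chi-square per degree of freedom at least 9.58). Intervals and floors cover counting error only.

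Every called gene was named, with values in all libraries for the 12 largest changes in each direction. Of each list, the called members were named and up to 4 others with the smallest p, and beyond these some well-known members were given after their values were seen. Of the genes not called, the 10 largest changes without overlap in each direction were named. The members, the 38 gene lists (498 entries, 497 found, 481 tested) and the tests were chosen with earlier results of these data known. The entry Clca1 was matched to Clca3, and Siglecf to Siglec5, older symbols of these genes. Lists share some members.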

Additional observations from a re-analysis of the deposited data

Results flagged for a closer look

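Among 106 groups of 5 libraries examined (the 48 called genes, Il4ra and 4 library measures in both OVA groups), 6 held 1 library far from the other 4, by Dixon's test at its 95% critical value. Chance alone flags about 1 in 20 groups.

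Anti-IL-4Ra replicate 2 stood out in 3 lower genes. It held 4.82 CPM of Rnase2a against 0.227 to 1.55 CPM in the other anti-IL-4Ra lungs, 22.2 CPM of Mgl2 against 7.90 to 11.4 CPM, and 4.27 CPM of Tdo2 against 1.35 to 1.65 CPM. In each of these genes it still lay below every isotype library.

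Isotype replicate 4 held 206 CPM of Ccl9 against 118 to 129 CPM in the other isotype lungs. Isotype replicate 5 held 11.5 CPM of Tlr2 against 16.3 to 18.2 CPM, and anti-IL-4Ra replicate 3 held 428 CPM of Mpeg1 against 484 to 500.3 CPM. Without the library that stood out, Ccl9 lost its call and the other 5 genes kept theirs.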

How the results depend on the processing

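All 48 called genes kept their direction in every alternative fit in which they were tested. Of the 48, 30 kept the call in all 15 fits that left out 1 library. In those and in each of the 11 other alternatives that tested the gene, 25 kept it. The stricter filter left 2 of the 48 untested, Ddx4 of the 25 among them, and the fit of only the 10 OVA libraries left 1 untested. With 1 library left out, the count of called genes ran from 32 to 61, that of higher genes from 13 to 27 and that of lower genes from 18 to 36; the lowest counts were without anti-IL-4Ra replicate 5 (32 genes, 18 of them lower) and without isotype replicate 1 (13 higher). The highest, 61, was without anti-IL-4Ra replicate 2. Genes without overlap numbered 220 to 358 when 1 library was left out, 90 to 165 higher and 123 to 218 lower, since fewer libraries overlap less easily. DESeq2 called 132 genes, 62 higher and 70 lower. With only the 10 OVA libraries 32 genes were called, 13 higher, and the cause was not tested. The other scalings, filters and limma voom gave 45 to 51 genes, and the Rn45s share as a covariate gave 64.

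Same-numbered libraries of both groups did not deviate together (correlations of -0.546 to -0.083). The labels state no pairing of replicate numbers, and correlations over all genes cannot exclude a shared batch. With the replicate block 26 genes were called, 11 higher and 15 lower, all among the 48. No library correlated best with its own number.

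Low levels limit Msx3, Ddx4, Vstm2a and 9530059O14Rik, which rest on 12 to 194 counts in the anti-IL-4Ra or isotype group, or on as few as 9. Where near-identical genes share reads, as for Mgl2, Pilra and Klrb1b, the split is an estimate. With 5 lungs a group and wide spread between lungs, the mucus genes had SEs of 0.37 to 0.94 on the log2 scale.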

Other observations

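Of the 186 genes without overlap, 138 missed the threshold in edgeR. Separation of this kind is expected in a share of 0.00794 of genes without a difference, so it adds little for each gene below. Cebpe, a transcription factor of granulocyte maturation, was at 1.44, 1.82, 1.62, 2.60 and 5.23 CPM with isotype and at 0.578, 0.758, 0.666, 1.01 and 0.170 CPM with anti-IL-4Ra (log2 change -1.98 ± 0.44, adjusted p = 0.0892). Fcrls, an Fc receptor-like scavenger receptor, was at 16.3 ± 6.21 and 3.68 ± 3.12 CPM (-2.13 ± 0.49, adjusted p = 0.109), and limma voom and DESeq2 called it. Other decreases of this kind were 4930542D17Rik (-2.17, adjusted p = 0.0565), the olfactory receptor gene Olfr111 (-2.15, adjusted p = 0.121) and Tarm1 (-1.70, adjusted p = 0.121), a receptor of myeloid cells. DESeq2 called these 5 genes.

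Among increases without overlap, 5430437J10Rik was at 0.682, 0.744, 0.203, 0.342 and 0.718 CPM with isotype and at 4.63, 2.27, 2.00, 0.875 and 2.78 CPM with anti-IL-4Ra (2.23 ± 0.47, adjusted p = 0.0635). Pon1, the paraoxonase of club cells and liver, was at 4.24, 1.41, 3.72, 4.24 and 1.64 CPM with isotype and at 7.44, 4.61, 8.06, 6.19 and 33.6 CPM with anti-IL-4Ra (1.96 ± 0.51, adjusted p = 0.209). Replicate 5 set the upper end, as it did for Cyp2f2. Apoc2, an apolipoprotein, changed by 1.45 ± 0.37 (adjusted p = 0.19), Slc39a2, a zinc transporter, by 1.34 ± 0.31 (adjusted p = 0.113), and Smpdl3b, a phosphodiesterase of macrophages, by 0.98 ± 0.24 (adjusted p = 0.13). The receptor genes Trem3 (1.22 ± 0.42, adjusted p = 0.516) and Pilrb1 (1.09 ± 0.28, adjusted p = 0.203) and the haem-binding Hpx (1.06 ± 0.34, adjusted p = 0.439) completed the 10 largest with Cxcl10 and Saa3. Pilrb1 is the activating partner of Pilra and shares sequence with it.

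DESeq2 also called genes that belong to no list and that edgeR did not call in the comparison reported above. These were selected here after their values were seen. Among them were Nlrp3, the inflammasome sensor (0.85 ± 0.18, adjusted p = 0.0012 in DESeq2), Axl, a receptor for dying cells (0.59 ± 0.15, adjusted p = 0.0106), Igf1, the insulin-like growth factor (-1.29 ± 0.33, adjusted p = 0.0175; also called by edgeR with only the 10 OVA libraries, adjusted p = 0.0481), and Il22ra2, the decoy receptor for IL-22 (-3.24 ± 0.90, adjusted p = 0.0429).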
